A study of Mus musculus with 12 samples.

Results

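This account describes how gene expression differed between a high fat and a regular diet in mice that lack Smad3. Smad3 is one of the proteins that carry the TGF-beta signal to the nucleus. The account rests on 4 of the 12 Affymetrix arrays of the series. Each gene was read from its brightest probe set that names no other gene. The arrays are the 2 (a and b) of Smad3-/- mice on a high fat diet (55% fat) and the 2 of Smad3-/- mice on a regular diet. All members of the comparison carry the Smad3 deletion, in a background of C57BL/6 mixed with NIH Black Swiss, and the strain label speaks of females. The 4 arrays of wild type C57BL/6 mice on the same 2 diets are used beside them to show where the response of the knockout differed, and the last 4 arrays, of diet induced obese mice given an antibody, enter only the choice of each gene's probe set and the estimate of the spread. The labels of the arrays name no tissue, no age and no length of feeding. Nor do they say that a and b are different animals: every p-value therefore measures array-to-array spread only, part or all of which may be technical, and the number of arrays limits the precision.

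TGF-beta binds a pair of serine/threonine kinase receptors that phosphorylate Smad2 and Smad3. These join Smad4, enter the nucleus and act on genes of the extracellular matrix, of contractile cells and of growth control. In fat, TGF-beta through Smad3 is known to hold back the differentiation of adipocytes, by lowering the activity of the C/EBP factors that switch on Pparg. A white adipocyte stores triglyceride in 1 large droplet and secretes leptin and adiponectin, and it grows when dietary fat is in excess. A brown adipocyte burns fat through the uncoupling protein Ucp1.

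Values are deposited log2 intensities, so a difference of 1 is a factor of 2, and each difference is the mean of the high fat arrays minus the mean of the regular diet arrays, given with its standard error (SE). A gene is said to rise or fall where limma's two-sided test, adjusted by Benjamini and Hochberg over all 18194 genes, gave a p under 0.05. The 2 arrays of a group correlated at 0.9918 to 0.9944 over genes in the 4 diet and genotype groups, and array medians lay between 6.32 and 6.39. The difference between the 3' and 5' control probe sets, a measure of RNA degradation, was 0.28 and 0.41 for Gapdh on the regular diet arrays of the knockout and 0.39 and 0.37 on its high fat arrays. The targeted gene, Smad3, read 9.10 and 9.17 in the knockout on regular diet and 9.14 and 9.03 on high fat diet, a difference of -0.05 ± 0.11 (SE, n = 2 arrays per group). No source used here places its probe sets inside or outside the deleted stretch, so these values do not check the genotype.

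Between the diets, 3150 of 18194 genes (17.3%) differed in the knockout. The labels do not say that a group holds more than 1 animal. Diet and differences between animals or dissections therefore cannot be told apart. Of all genes tested, 11.5% (2091) rose and 5.82% (1059) fell, and with a change of at least 1.5-fold required as well, 5.07% rose and 2.70% fell. The median over all genes was 0.00, so the list medians given below are read against a centre near 0. Applying quantile normalization again gave 3613 genes, 2018 higher and 1595 lower, and so moved the share of higher calls from 66.4% to 55.9%. Leaving out array b of the high fat group gave 2035 genes. Across the named genes that passed, the SE lay between 0.0972 and 0.185, and limma's adjusted p was at most 0.0436.

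Genes of the epididymis, the duct in which sperm mature, were among the 15 largest falls in the knockout and led them. Lcn8, a lipocalin secreted by the epididymal duct, read 13.77 and 13.76 on regular diet and 4.90 and 5.16 on high fat diet. Lcn5, a lipocalin that binds retinoic acid in the same duct, read 14.01 and 14.04 against 5.21 and 5.55. Gpx5, a selenium-free peroxidase secreted in that duct, read 13.77 and 14.09 against 7.00 and 7.09. In each of the 3 genes the groups were far apart and the arrays within a group close together. The differences were -8.74 ± 0.14 for Lcn8, -8.65 ± 0.14 for Lcn5 and -6.88 ± 0.14 for Gpx5 (SE, n = 2 arrays per group, limma adjusted p 4.6e-26, 4.6e-26 and 1.37e-23). In the table of the assembly GRCm38.p6, Lcn8 and Lcn5 are neighbours with 0 coding genes between them, and Gpx5 lies on another chromosome.

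The other genes among those 15 fell by 4.55 (Defb35, a beta-defensin) to 6.67 (Cst12, a cystatin, which read 11.30 and 11.11 against 4.67 and 4.38). They include the cystatin Cst11, the lipocalins Lcn9 and Lcn2, the secreted Rnase10, Epp13 and Pate5, the mucin Muc15, the adaptor subunit Ap1s2 and the amino acid carrier Slc38a5. Over the whole epididymis list, 26 of 34 genes fell, 1 rose and 7 did not pass, with a median of -1.98. The mean level of the list was 9.44 and 9.43 on the regular diet arrays of the knockout and 6.64 and 6.70 on its high fat arrays, against 6.22 and 6.14 in wild type mice on regular diet and 7.21 and 7.25 on high fat diet. The 2 regular diet arrays of the knockout thus stood apart from the other diet arrays. The epididymis is a male organ, and the labels do not give the sex of the mice sampled. In such bulk samples, fewer cells of a type and less RNA per cell cannot be told apart. Of the 8 genes linked to the sex chromosomes, 0 passed by limma, also with any 1 array left out, against 17.3% of all genes. Xist read 8.08 and 8.26 on regular diet and 8.26 and 8.13 on high fat diet, and the Y-linked Uty 6.85 and 6.92 against 6.99 and 7.01. So few genes, with such flat values, do not tell the sex of the mice.

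The members of the epididymis list did not all move alike. Clu, the chaperone clusterin, and Bmyc, both named after their values were seen, also fell. Clu fell by 4.13 and Bmyc, a relative of Myc, by 2.18. Cuzd1 read 12.56 and 12.43 on regular diet and 12.07 and 12.16 on high fat diet, a difference of -0.38 ± 0.12, and it lost its call whenever an array of the knockout was left out. Of 31 germ cell genes of the testis, 2 rose (6.45%) and 4 fell (12.9%), against 11.5% and 5.82% of all genes. Their median was -0.07, against -1.98 for the epididymis list. Among those that fell were Prm1 (-0.59 ± 0.13), a protamine that packs sperm DNA, and Hook1 (-1.02 ± 0.13). Of the accessory gland genes, 1 of 12 fell (8.33%, near the 5.82% of all genes), Svs4 by 0.78. The count of falling germ cell genes was 1 without array a of the high fat group and 2 without either regular diet array, and that of rising ones was 0 without array a of the regular diet group or array b of the high fat group.

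General epithelial genes fell as well. Of 34 such genes, 18 fell and 1 rose (Ltf, lactoferrin, chosen after its values were seen), with a median of -0.49. Cldn2, a pore-forming tight junction protein, fell by 2.64 ± 0.15, the simple keratins Krt19 and Krt18 by 1.98 ± 0.15 and 1.86 ± 0.13, and the protease inhibitor Spint2 by 1.65 ± 0.11. In wild type mice on the same diet Krt19 fell too, by 2.45 ± 0.15, though 12 of the 34 genes rose there and 2 fell. Milk protein genes, named after their values were seen, did not pass: Csn2 differed by -0.32 and Wap by -0.06. The fall of the epithelial genes stood beside that of the epididymis list in the same arrays, and the part of that list in the result was not tested.

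**Figure D1:**
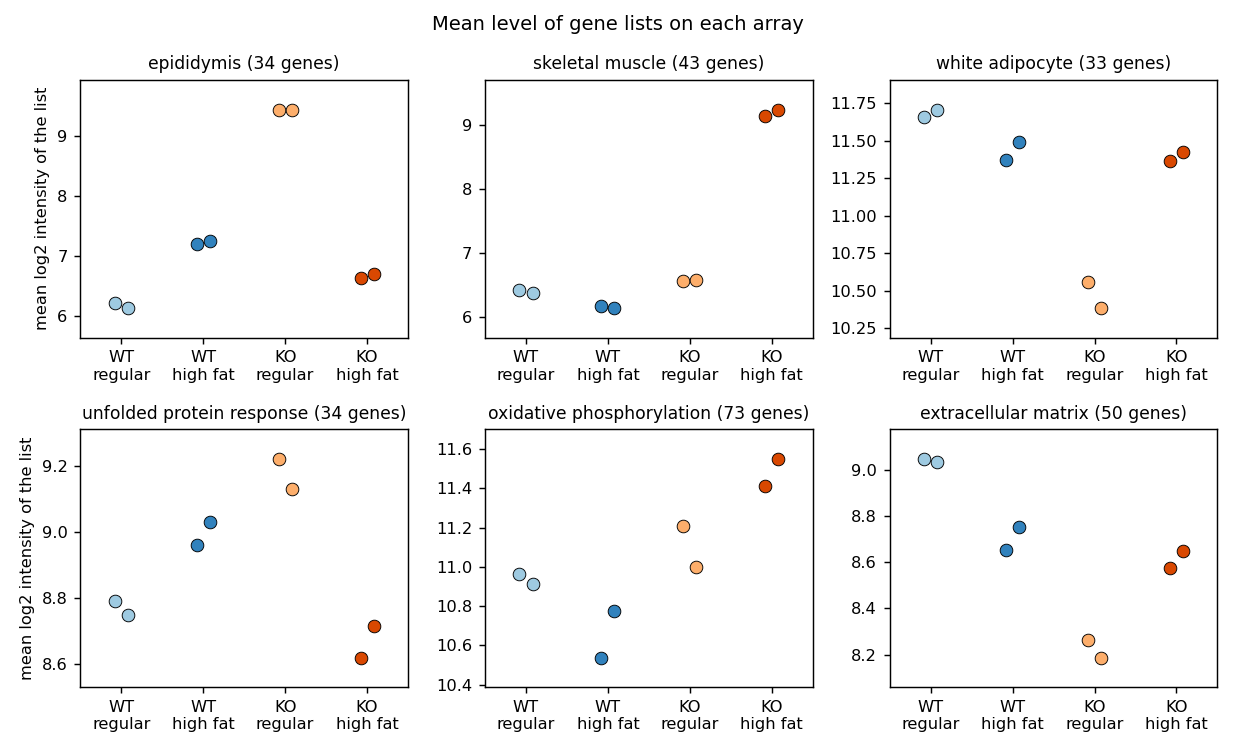
Mean log2 intensity of the genes of 6 lists on each of the 8 diet and genotype arrays, 1 point per array. The 2 regular diet arrays of the knockout hold the highest epididymis means (9.44 and 9.43), and its 2 high fat arrays hold the highest skeletal muscle means (9.14 and 9.25).

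Genes of striated muscle rose most. Of 43 skeletal muscle genes, 39 rose, 1 fell and 3 did not pass, with a median of 2.70, and the mean level of the list went from 6.57 and 6.57 to 9.14 and 9.25. Myh7, the myosin heavy chain of slow fibres, read 5.03 and 4.89 on regular diet and 9.86 and 10.02 on high fat diet. Acta1, skeletal alpha-actin, read 8.32 and 8.58 against 12.93 and 12.99. Tnnc2, the calcium sensor of fast fibres, read 7.64 and 7.27 against 11.96 and 12.12. All high fat arrays lay above all regular diet arrays for these 3 genes, by 4.98 ± 0.14, 4.51 ± 0.11 and 4.59 ± 0.12 (limma adjusted p 6.22e-21, 6.18e-22 and 2.82e-21).

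Parts of both fibre types rose together. On the fast side were Myh4 (3.89), Myh1 (4.02), Tnnt3 (4.78), Tnni2 (4.55) and the calcium pump Atp2a1 (3.79). On the slow side were Myh7, the light chain Myl2 (4.81) and, chosen after their values were seen, Tnnc1 (2.70) and Tnnt1 (3.48). The giant spring protein Ttn rose by 3.68, the oxygen store Mb by 3.60, the creatine kinase Ckm by 3.77 and the Z-disc proteins Actn3 and Tcap by 3.84 and 3.56. Heart and embryonic forms, named after their values were seen, did not pass: Myh6 differed by 0.25, Myh3 by -0.09, Actc1 by 0.26 and Nppa by -0.06. Of the list members outside these (named after their values were seen), Tpm3 fell by 0.61, and Casq2 (0.15), Ampd1 (0.36) and Jph1 (-0.10) did not pass. Second, dimmer probe sets of Myh4, Ckm and Mb gave 0.07, 0.25 and -0.29, and none of the 3 passed.

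The factors that build muscle moved little beside the contractile genes. Of the 17 genes on the myogenic regulator list, 5 rose and 1 fell, with a median of 0.14, and 2 rose without array b of the high fat group. Myod1, the master factor of the lineage, differed by 0.04 ± 0.13 and its second probe set by -0.68 ± 0.17. Myf6, which is made in mature fibres, rose by 0.59 ± 0.15 and the cofactor Vgll2 by 0.83 ± 0.14, while Mef2a fell by 0.50 ± 0.12. The largest rise on the list, 1.64 ± 0.13, was of Srl, a sarcoplasmic reticulum protein and not a regulator of the lineage.

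Promoters of the muscle genes that rose are shown for the sites that their known activators read. MEF2 and CArG sites (the latter bound by serum response factor) were searched by name, on both strands, in the 250 bases before each gene's start in RefSeq (GRCm38.p6). Of 43 muscle genes, 31 had such a window. The capitals mark MEF2 sites in Myh4, Myh1 and Ttn, and CArG sites in Myh4 (its second site) and Acta1.
Myh4 promoter stretch, chr11:67237600-67237747, plus strand: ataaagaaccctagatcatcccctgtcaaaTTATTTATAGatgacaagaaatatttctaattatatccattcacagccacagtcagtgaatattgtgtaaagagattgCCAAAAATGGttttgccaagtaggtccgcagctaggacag
Myh1 promoter stretch, chr11:67199861-67199930, plus strand: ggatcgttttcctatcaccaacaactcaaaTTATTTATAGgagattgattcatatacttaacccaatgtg
Ttn promoter stretch, chr2:76982674-76982743, minus strand: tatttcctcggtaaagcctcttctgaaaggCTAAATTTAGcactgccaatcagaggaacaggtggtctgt
Acta1 promoter stretch, chr8:123894809-123894878, minus strand: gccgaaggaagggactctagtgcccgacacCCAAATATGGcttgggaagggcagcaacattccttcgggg
A MEF2 site stood in 6 of the 31 windows, and 5 of those 6 genes rose. A CArG site stood in 4, of Acta1, Myh4, Myl3 and Ldb3, and all 4 rose. In all windows of this length, 2.92% hold a MEF2 site and 1.47% a CArG site. Of all tested genes with a MEF2 site, 14.2% rose and 4.73% fell. Of those with a CArG site, 15.9% rose and 11.1% fell, against 11.5% and 5.82% of all genes. The shorter E-box CAGCTG, the site of the Myod1 family, was in 16 of the 31 windows, 15 of them of genes that rose, against 13.0% of all windows. Of all tested genes with the E-box, 12.7% rose and 6.07% fell. In the whole muscle list 39 of 43 genes rose, so the counts within it do not separate the sites from the list. A site match is a description of the letters and not a bound site.

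White adipocyte genes rose. Of 33 genes, 29 rose, 0 fell and 4 did not pass, against 11.5% of all genes rising, with a median of 0.93 and quartiles of 0.58 and 1.20. The mean level of the list was 10.55 and 10.39 on regular diet and 11.36 and 11.42 on high fat diet, against 11.66 and 11.71 in wild type mice on regular diet. With 1 array left out at a time, 26 to 29 of the 33 rose. The same comparison holds the fall of the epididymis list (from 9.44 and 9.43 to 6.64 and 6.70) and the rise of the skeletal muscle list (from 6.57 and 6.57 to 9.14 and 9.25). Their part in the rises of white fat, lipid, matrix, fibroblast and endothelial genes was not tested.

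Among the hormones of the fat cell, Lep, which encodes leptin, read 7.39 and 7.17 on regular diet and 9.30 and 9.30 on high fat diet. It rose by 2.02 ± 0.11, or 4.05-fold (limma adjusted p 7.26e-14). Both high fat arrays lay below the wild type arrays on regular diet (11.01 and 11.24). Adipoq, adiponectin, rose by 0.85 ± 0.10, Retn, resistin, by 1.17 ± 0.12, and Rarres2, the chemoattractant chemerin, by 2.27 ± 0.11.

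Among the proteins of the fat droplet, Cidec, which fuses small droplets into large ones, read 11.03 and 11.09 against 12.81 and 12.76. The groups did not overlap, and the rise of 1.73 ± 0.10 (limma adjusted p 7.26e-14) brought the high fat arrays beside the wild type ones (12.91 and 12.89 on regular diet). Plin4, a droplet coat protein, rose by 1.24 ± 0.10. Npr3, the clearance receptor of natriuretic peptides, rose by 1.44 ± 0.11 and Cavin1, a coat protein of caveolae, by 1.16 ± 0.11. Fabp4, the abundant fatty acid carrier of adipocytes (named after its values were seen), read 13.85 and 14.06 against 14.20 and 14.19 and did not pass (0.24 ± 0.11).

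The factors that drive adipocyte differentiation rose too. Pparg, the nuclear receptor at the head of the programme, read 8.83 and 8.60 against 9.74 and 9.80, with a rise of 1.06 ± 0.12 (limma adjusted p 4.85e-08). Its partners Cebpa, Cebpb and Cebpd, chosen after their values were seen, rose by 1.08, 0.54 and 0.58. In wild type mice Pparg was lower by 0.93 on the same diet, and the 2 responses differed by 1.99 ± 0.16 (limma adjusted p of the interaction 1.73e-10). Slc2a4, the insulin-sensitive glucose carrier, read 9.55 and 9.56 against 10.13 and 10.27, a rise of 0.64 ± 0.11, where wild type mice fell by 1.04.

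Genes linked to growing fat pads rose in part. Of 15, 8 rose and 0 fell, led by Sncg, a synuclein made in adipocytes, at 2.51 ± 0.12. Mest, an imprinted gene that tracks fat pad expansion, read 8.34 and 8.23 against 8.24 and 8.32, a difference of -0.01 ± 0.10, while it rose by 1.20 in wild type mice (interaction -1.21 ± 0.14, limma adjusted p 1.55e-07). Lep, Npr3 and Cavin1 belong to both this list and the white adipocyte list.

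**Figure D2:**
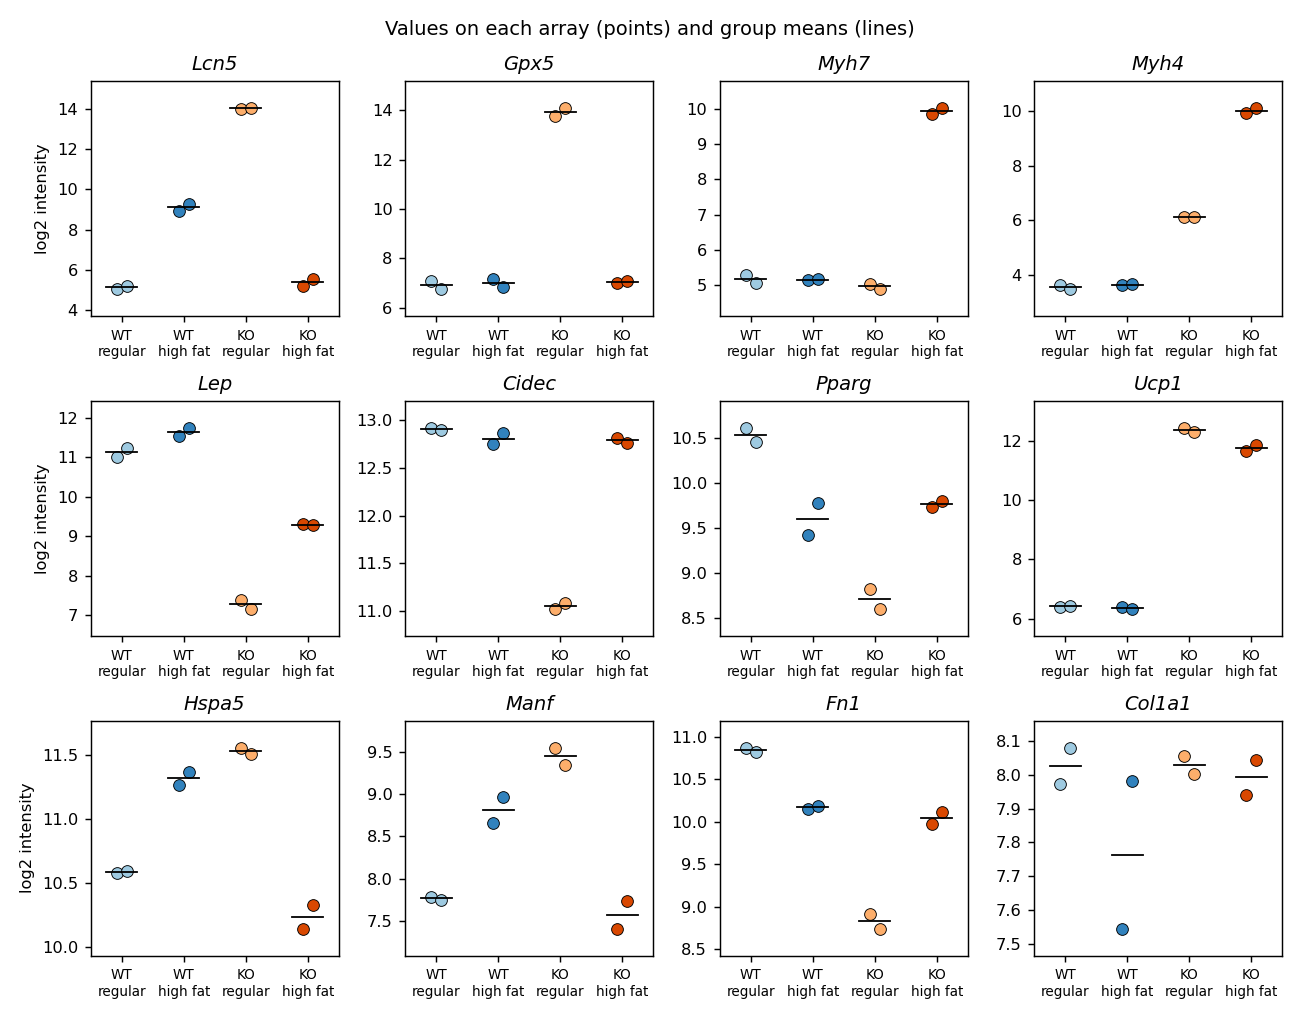
Log2 intensity of 12 named genes on each of the 8 diet and genotype arrays, 1 point per array and a line at each group mean, with the groups on the horizontal axis. In the knockout, Lep goes from 7.39 and 7.17 to 9.30 and 9.30, Hspa5 from 11.55 and 11.50 to 10.14 and 10.33, and Col1a1 stays between 7.94 and 8.06.

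Genes of lipid synthesis rose more often than they fell. Of 33 genes of fatty acid and triglyceride synthesis, 19 rose and 3 fell, with a median of 0.43. Among enzymes that assemble triglyceride, the phosphatidate phosphatase Lpin1 rose by 1.35 ± 0.10, the acyltransferase Agpat2 by 1.20 ± 0.10 and Dgat1, which adds the last fatty acid, by 1.18 ± 0.10. The second probe set of Dgat1 gave 0.00. Fasn, fatty acid synthase, read 13.93 and 13.89 against 13.89 and 13.87 (-0.03 ± 0.10). The desaturase Scd1 differed by 0.17 ± 0.10 in its brightest probe set, which read 14.38 and 14.37 against 14.56 and 14.53. Its other probe set read 10.73 and 10.69 against 12.50 and 12.43 and rose by 1.75 ± 0.09 (limma adjusted p over all probe sets 1.89e-13), so the probe sets of Scd1 disagree. Elovl6, which lengthens the product of fatty acid synthase, fell by 0.68 ± 0.11. The 2 others that fell, Acly and Fads2, were named after their values were seen, at -0.84 and -1.16. In wild type mice 16 of the same 33 genes fell and 4 rose (1 without array a of the regular diet group or array b of the high fat group, and 2 without array b of the regular diet group), and Fasn fell by 0.89 (interaction 0.86 ± 0.14, limma adjusted p 2.69e-05).

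Regulators of sterol sensing rose. Insig1, which holds the SREBP precursors in the endoplasmic reticulum, read 8.70 and 8.86 against 10.85 and 11.02, a rise of 2.16 ± 0.12. Srebf1, which encodes the lipogenic SREBP, rose by 0.55 ± 0.11. Among the 20 genes of cholesterol synthesis 6 rose and 3 fell, with Sc5d at 1.45 ± 0.10, Hmgcs1 at 1.09 ± 0.13 and Sqle at -0.64 ± 0.11. Without array b of the high fat group, 3 rose, and without array a of that group 1 fell.

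Genes of fat release and of the droplet surface rose in 17 of 25 cases, and 1 fell, with a median of 0.76. Abhd5, the activator of the lipase Pnpla2, read 7.81 and 7.53 against 8.98 and 9.23, a rise of 1.44 ± 0.12 where wild type mice fell by 1.72. Fabp5, a fatty acid carrier, rose by 1.19 ± 0.11, Pde3b, through which insulin curbs lipolysis, by 1.05 ± 0.10, and Gpihbp1, the capillary anchor of lipoprotein lipase, by 0.72 ± 0.10. Of 24 insulin signalling genes 8 rose and 3 fell. Akt2 rose by 1.10 ± 0.11, glycogen synthase Gys1 by 0.98 ± 0.11 and Foxo1 by 0.90 ± 0.11. The falling count was 1 without array a of the high fat group.

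Brown fat genes did not move with the white fat genes. Of 32 brown and beige genes, 2 rose and 3 fell, with a median of -0.06, against 11.5% and 5.82% of all genes. Ucp1 read 12.44 and 12.32 on regular diet and 11.67 and 11.86 on high fat diet, a fall of 0.61 ± 0.11 (limma adjusted p 8.45e-05). Both groups were far above the 4 wild type arrays, which lay between 6.33 and 6.44. Cidea, a droplet protein of brown fat, differed by -0.21 ± 0.13, the brown fat regulator Prdm16 by -0.15 ± 0.14 and the coactivator Ppargc1a by 0.27 ± 0.15, and none of these 3 passed. Dimmer probe sets did, at -0.47 ± 0.14 for Prdm16 and 0.47 ± 0.15 for Ppargc1a (limma adjusted p over all probe sets 0.0285 and 0.0405). Slc36a2, an amino acid carrier of brown and beige fat, rose by 0.90 ± 0.12. The thioesterase Acot11 fell by 0.62 ± 0.16, a call lost without array a of either group. The second probe set of Acot11 gave -0.39 ± 0.14 and did not pass. The falling count was 6 with quantile normalization applied again, and the rising count 1 without array b of either group.

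Mitochondrial genes rose by small amounts and in large numbers. Of 73 genes of oxidative phosphorylation, 42 rose and 0 fell, with a median of 0.38, and for 66 of the 73 both high fat arrays lay above both regular diet arrays, against 27.0% of all genes. Ndufs5, of complex I, read 8.15 and 8.25 against 9.11 and 9.32, a rise of 1.01 ± 0.13. Ndufb3 of the same complex rose by 0.82 ± 0.13 and Atp5j, of the ATP synthase, by 0.73 ± 0.12. The number that rose was 26 without array b of the regular diet group and 19 without array b of the high fat group. The same 73 genes had a median of -0.28 in wild type mice, where 30 fell and 1 rose. The falling count there was 17 without wild type array a of the regular diet group and 16 without array a of the high fat group.

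The largest rise in that list was of the muscle form of a cytochrome oxidase subunit, Cox6a2, at 1.54 ± 0.15 (6.84 and 7.11 against 8.45 and 8.59). Cox7a1 and Cox8b, forms found in muscle and in brown fat and named after their values were seen, differed by -0.38 and 0.07 and did not pass. The skeletal muscle list rose in the same arrays, and its part in the mitochondrial result was not tested.

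In the tricarboxylic acid cycle list, which also holds enzymes that act beside the cycle, 14 of 25 genes rose and 0 fell, with a median of 0.36. When quantile normalization was applied again, 7 rose. Among the enzymes beside the cycle, Idh1, the cytosolic isocitrate dehydrogenase, rose by 1.17 ± 0.11. Pyruvate carboxylase Pcx rose by 0.86 ± 0.10 and the pyruvate dehydrogenase component Pdhx by 0.82 ± 0.12. In fatty acid oxidation 16 of 27 rose and 1 fell. Cpt1a, the liver form of the gatekeeper that admits fatty acids to mitochondria, fell by 0.70 ± 0.11, and Cpt2, Echs1 and Eci2, which act behind it, rose by 0.77, 0.87 and 0.91. Regulators of mitochondrial number moved less: 5 of 26 rose and 0 fell, with Mfn2, which fuses mitochondria, at 0.86 ± 0.11, and 2 rose without array a of the regular diet group or array b of the high fat group. Its second probe set gave 0.14 ± 0.16.

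Of 20 glycolysis genes, 10 rose and 2 fell. Eno3 and Pgam2, the muscle enolase and phosphoglycerate mutase, rose by 2.25 ± 0.12 and 2.03 ± 0.15, Pfkm, the muscle phosphofructokinase, by 1.39 ± 0.11, and the regulator Pfkfb3 by 1.79 ± 0.12. Eno3, Pgam2 and Pfkm are muscle forms and rose beside the skeletal muscle list, whose part was not tested. The rising count was 5 without array b of the high fat group, and 6 without array b of the regular diet group or with quantile normalization applied again.

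Genes of protein folding in the endoplasmic reticulum fell. This unfolded protein response is driven by the sensors Atf6, Ern1 and Eif2ak3 and raises chaperones when secretory load is high. Of 34 genes, 16 fell and 1 rose, against 5.82% of all genes falling, with a median of -0.29. Hspa5, the master chaperone BiP, read 11.55 and 11.50 on regular diet and 10.14 and 10.33 on high fat diet. Manf, a secreted factor of stressed endoplasmic reticulum, read 9.55 and 9.34 against 7.41 and 7.73. In both the groups were well separated, with falls of 1.29 ± 0.10 and 1.88 ± 0.12 (limma adjusted p 4.14e-11 and 2.71e-12).

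Several of the falling genes carry the ER stress response element, the site read by Atf6 together with NF-Y. Its letters, CCAAT and CCACG with 9 bases of any kind between them, were searched on both strands in the RefSeq windows (GRCm38.p6, 250 bases before the start). Of the 34 genes, 30 had a window and 8 held the element. They are shown 5′ to 3′ on the strand of the gene, with the element in capitals (it reads CGTGG first where it lies on the other strand), and Hsp90b1 holds 2 copies.
Hspa5 promoter stretch, chr2:34771995-34772073, plus strand: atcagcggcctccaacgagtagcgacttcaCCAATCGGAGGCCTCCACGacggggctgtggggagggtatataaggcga
Hsp90b1 promoter stretch, chr10:86705503-86705686, minus strand: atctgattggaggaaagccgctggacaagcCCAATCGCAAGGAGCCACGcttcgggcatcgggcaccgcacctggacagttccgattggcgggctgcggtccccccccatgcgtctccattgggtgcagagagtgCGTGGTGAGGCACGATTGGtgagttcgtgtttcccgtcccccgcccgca
Pdia6 promoter stretch, chr12:17266461-17266539, plus strand: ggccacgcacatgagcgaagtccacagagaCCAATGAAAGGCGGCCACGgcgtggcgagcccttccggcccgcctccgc
Calr promoter stretch, chr8:84847045-84847123, minus strand: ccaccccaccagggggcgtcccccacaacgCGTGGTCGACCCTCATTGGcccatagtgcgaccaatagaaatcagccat
Canx promoter stretch, chr11:50325770-50325848, minus strand: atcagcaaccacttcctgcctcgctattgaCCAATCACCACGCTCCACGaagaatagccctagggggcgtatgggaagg
Dnajc3 promoter stretch, chr14:118937797-118937875, plus strand: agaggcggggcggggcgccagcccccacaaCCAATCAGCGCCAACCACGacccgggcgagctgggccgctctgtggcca
Creld2 promoter stretch, chr15:88819490-88819568, plus strand: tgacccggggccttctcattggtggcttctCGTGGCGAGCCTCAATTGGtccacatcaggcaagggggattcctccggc
Syvn1 promoter stretch, chr19:6046502-6046575, plus strand: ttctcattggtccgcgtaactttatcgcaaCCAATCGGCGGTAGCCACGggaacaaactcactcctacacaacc
Of these 8 genes, 7 fell and Syvn1, a ubiquitin ligase of the same compartment, differed by -0.13 ± 0.11. Among the 7 were the chaperones Hsp90b1 (-1.26 ± 0.10), Calr (-0.82 ± 0.11) and Canx (-0.37 ± 0.10), the disulphide isomerase Pdia6 (-1.27 ± 0.11), the co-chaperone Dnajc3 (-0.93 ± 0.12) and Creld2 (8.00 and 8.16 against 6.40 and 6.72, -1.52 ± 0.14). Apart from Hspa5, they were named for the element and after their values were seen. The element was in 0.113% of all 32851 windows. Of the 19 tested genes that hold it, 9 fell (47.4%) and 1 rose (5.26%). The 8 genes shown are among the 19 and hold 7 of the 9 falls, so this share is not separate from them. The falls were known when the element was searched, so this count is a description.

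Xbp1 and some other members of the list did not fall. Xbp1, the transcript that Ern1 splices, differed by 0.15 ± 0.10 in its brightest probe set and rose by 0.38 ± 0.10 in the next probe set (limma adjusted p over all probe sets 0.0135). Ddit3, the factor linked to cell death, differed by -0.20 ± 0.11. Asns, a target of the amino acid arm and named after its values were seen, rose by 0.73. Sec11c, a subunit of signal peptidase, fell by 1.80 ± 0.13, with -0.27 ± 0.16 in its second probe set. Of the other 2 probe sets of Hspa5, 1 gave -1.23 ± 0.11 and the other -0.29 ± 0.13, which did not pass. On the same diet in wild type mice Hspa5 rose by 0.73 and Manf by 1.04 (interactions -2.02 ± 0.14 and -2.92 ± 0.18, limma adjusted p 4.3e-12 and 2.95e-13). Epididymis and epithelial genes fell in the same knockout arrays, and their part in this result was not tested.

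**Figure D3:**
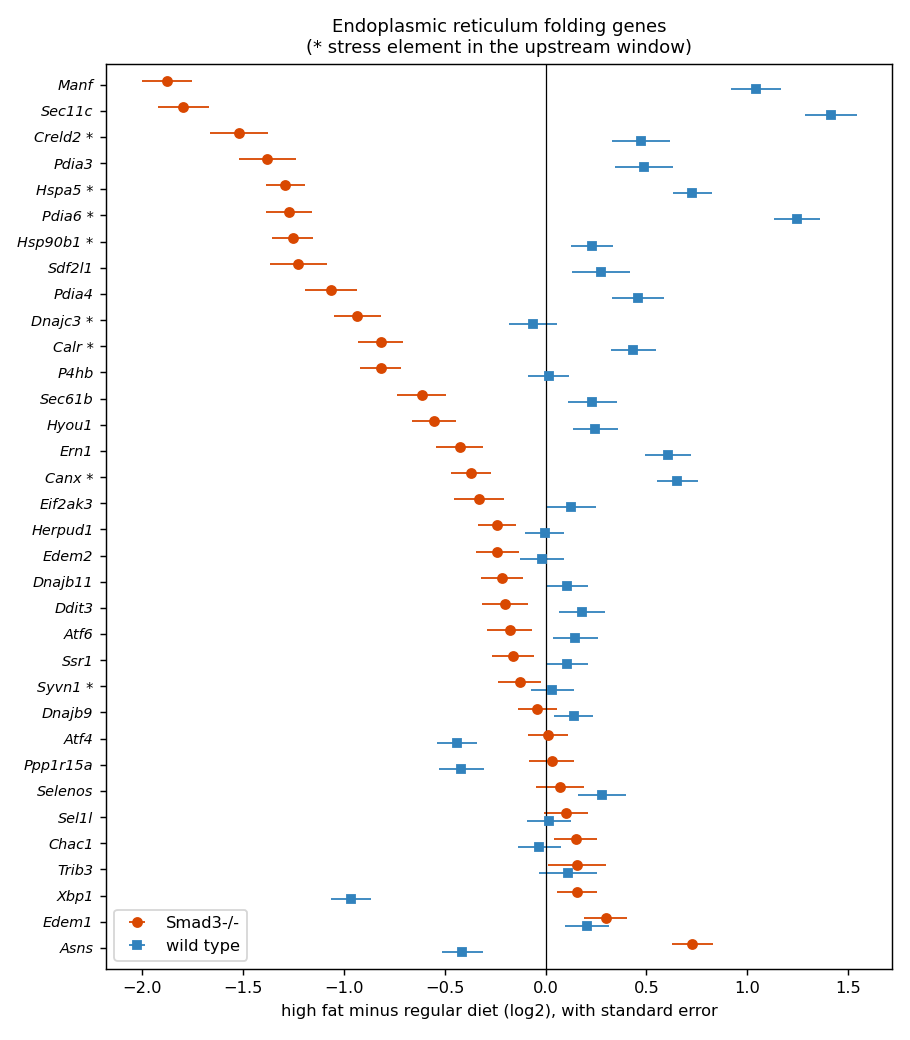
Log2 difference between high fat and regular diet, with its SE, for the genes of protein folding in the knockout and in wild type mice (n = 2 arrays per group). Asterisks mark the 8 genes with the ER stress response element, of which 7 fell in the knockout, from -0.37 for Canx to -1.52 for Creld2.

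Genes that act in the TGF-beta pathway itself moved in both directions. Of 38 ligands, receptors, Smads and modulators, 7 rose (18.4%) and 4 fell (10.5%), against 11.5% and 5.82% of all genes, with a median of 0.00. Tgfb1, the main ligand, read 7.63 and 7.82 against 7.76 and 7.85 (0.08 ± 0.12). Fst, which traps activin, rose by 0.67 ± 0.14 and the accessory receptors Eng and Tgfbr3 by 0.66 ± 0.13 and 0.60 ± 0.11. Skil, a repressor of Smads, fell by 0.60 ± 0.11, as in wild type mice (-0.59). The falling count was 1 without array b of the regular diet group or array a of the high fat group, 7 with quantile normalization applied again and 0 when probe sets of a gene were averaged.

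Of 28 genes that respond to TGF-beta, 12 rose and 2 fell, with a median of 0.18. Fn1, the matrix protein fibronectin, read 8.91 and 8.74 against 9.97 and 10.11. The groups did not overlap, and Fn1 rose by 1.21 ± 0.10 (limma adjusted p 2.56e-10), though its dimmer probe set gave -0.05 ± 0.15. Pmepa1, which feeds back on the receptor, rose by 1.14 ± 0.12, and Id3 by 1.16 ± 0.11. Ccn2, a matrix-associated factor and classic TGF-beta target, read 8.32 and 8.22 against 8.17 and 8.41 (0.02 ± 0.11), while it fell by 1.93 in wild type mice (interaction 1.95 ± 0.15, limma adjusted p 9.79e-11). The brightest probe set of Tpm1 rose by 1.40 ± 0.11, and its 3 others gave -0.54, -0.61 and 0.86, so no direction is given for that gene.

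The wider extracellular matrix rose, but not the main fibrillar collagen. Of 50 matrix genes, 29 rose and 1 fell, with a median of 0.39, in arrays that also differed in the epididymis and skeletal muscle lists. The basement membrane proteins Nid1 and Lama4 rose by 1.10 ± 0.11 and 1.04 ± 0.11 and the protease inhibitor Timp2 by 0.85 ± 0.10. Lama4's second probe set gave -0.02, and 4 of the other probe sets of Timp2 gave -0.01 to 0.15 and did not pass. Col1a1 read 8.06 and 8.00 against 7.94 and 8.05 (-0.04 ± 0.12), while Col3a1, chosen after its values were seen, rose by 0.93. The 1 that fell was the membrane protease Mmp14 (also named after its values were seen), by 0.50. Wild type mice had 21 of the 50 falling and 1 rising.

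Cells that lay down or line the tissue were read from their markers. Of 25 fibroblast and precursor genes 12 rose and 1 fell, with Efemp1 at 1.95 ± 0.14, vimentin (Vim) at 1.11 ± 0.10, Igfbp6 at 0.92 ± 0.12 and dermatopontin (Dpt) at 0.89 ± 0.10. Of 25 endothelial genes 15 rose and 1 fell, with Vwf, the clotting factor of vessel walls, at 1.16 ± 0.11 (7.13 and 7.01 against 8.25 and 8.21) and Plvap at 0.77 ± 0.10. The rising count was 10 without array b of the regular diet group or array a of the high fat group. Of 16 mesothelial genes 4 rose and 2 fell, with Upk3b at 1.98 ± 0.11 and Msln at 1.01 ± 0.18. The keratin Krt19, which belongs to this list as well as to the epithelial one, fell by 1.98 ± 0.15. Without array a of the regular diet group or array b of the high fat group 1 fell, and with dim probe sets left out 2 of the 11 genes then tested rose.

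Smooth muscle genes took different paths. Of 20 genes 9 rose and 2 fell, with a median of 0.34. Actg2, the actin of visceral smooth muscle, read 10.05 and 9.78 against 6.70 and 6.68, a fall of 3.22 ± 0.13. Des, desmin, which striated muscle also makes, rose by 1.48 ± 0.12, and Tpm2 by 1.11 ± 0.12. The second probe set of Des gave -0.04. Tagln rose by 0.95 ± 0.11 and the calponin Cnn1 differed by -0.11 ± 0.12. In wild type mice 16 of the 20 fell, Cnn1 by 5.39 and Tagln by 3.66, and the interaction passed for 16 genes, all towards the knockout.

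Immune genes rose in part. Of 47 macrophage genes 16 rose and 2 fell, with a median of 0.16. Lyz2, the lysozyme of myeloid cells, read 9.04 and 8.73 against 9.67 and 9.89 (0.89 ± 0.11), and Lgals3 and Retnla rose by 0.84 ± 0.12 and 0.82 ± 0.11. Cd9, a tetraspanin, fell by 0.98 ± 0.12. Adgre1, which encodes the macrophage marker F4/80, rose by 0.34 ± 0.11 (limma adjusted p 0.0398) and lost its call without any 1 of the 4 knockout arrays. Of 29 lymphocyte genes 1 rose (3.45%, against 11.5% of all genes), Jchain by 0.91 ± 0.14.

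The classical inflammatory cytokines of obese fat did not pass: Tnf differed by 0.09 ± 0.15 and Ccl2 by 0.10 ± 0.14. Of 42 cytokine, chemokine and acute phase genes, 8 rose (19%) and 1 fell (2.38%), against 11.5% and 5.82% of all genes. Among the rises were the chemokines Ccl9 and Ccl6 by 2.01 ± 0.11 and 1.26 ± 0.12 and the acute phase protein Orm1 by 1.64 ± 0.11. The 1 that fell was Lcn2, which belongs to the epididymis list too. Of 36 interferon response genes 7 rose (19.4%) and 3 fell (8.33%), against the same shares of all genes. Ifi27l2a read 10.12 and 9.87 against 12.44 and 12.52 (2.48 ± 0.11), and Isg20 fell by 0.89 ± 0.12. The rising interferon count was 4 without array b of either group.

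Defence against oxidants rose on balance. Of 34 genes 16 rose and 5 fell, among them the peroxidase Gpx1 at 1.28 ± 0.11 and the glutathione transferase Mgst3 at 1.64 ± 0.12, against Gstm5 at -1.06 ± 0.11 and the epididymal Gpx5. The falling count was 3 without array a of either group. Of 31 lysosome genes 8 rose and 1 fell, with the proteases Ctsc at 1.17 ± 0.10, Ctsd at 0.63 ± 0.10 and Ctsh at -1.73 ± 0.12. Of 34 cell cycle genes 4 rose (11.8%) and 1 fell (2.94%), near or below the 11.5% and 5.82% of all genes, with a median of -0.04. Among them the inhibitor Cdkn2c rose by 1.01 ± 0.11 and Ccnd2 by 0.81 ± 0.12. Without array b of the high fat group 2 rose.

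Lists that report handling and time of day were measured as well. Of 32 immediate early and heat shock genes 5 rose and 5 fell, with Egr2 at -2.15 ± 0.15 (8.38 and 8.07 against 6.07 and 6.06) and Klf2 at 0.91 ± 0.12. The rising count was 3 without array b of either group. Of 21 clock genes 8 rose and 0 fell, among them Rora at 1.01 ± 0.13, Nr1d1 at 0.86 ± 0.11 and Dbp at 0.78 ± 0.11, and 5 rose without array a of either group. Of 18 hepatocyte genes 3 rose (16.7%), led by Cyp2e1 at 1.06 ± 0.10, and without array b of the high fat group 1 did. Of 11 pancreas genes 1 rose (9.09%) and of 14 blood genes 2 rose (14.3%). Of 15 neural genes 1 rose and 1 fell (6.67% each). Over all genes 11.5% rose and 5.82% fell. The part of these lists in the other results was not tested.

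**Figure D4:**
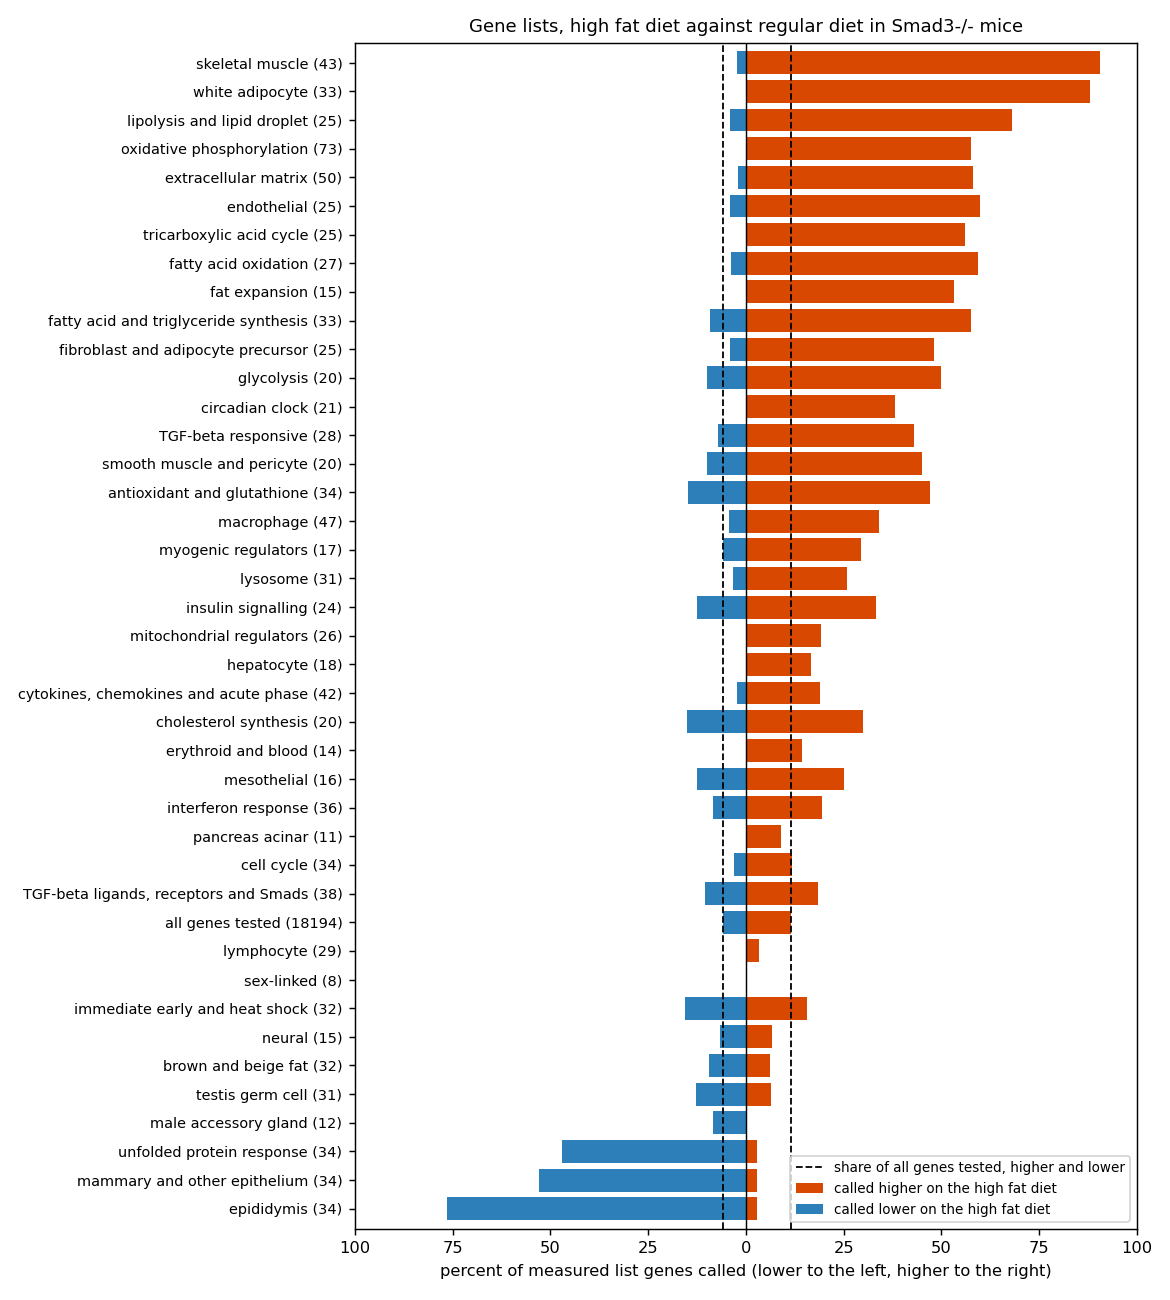
Percent of the genes of each list that rose or fell in the knockout on high fat diet (limma, adjusted p under 0.05), with dashed lines at the shares of all genes tested (11.5% and 5.82%). Skeletal muscle and white adipocyte genes lead the rises, with 39 of 43 and 29 of 33, and epididymis genes lead the falls, with 26 of 34.

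The response of the knockout was set against that of wild type mice, with which it shares no array. Between the diets, 1966 genes differed in wild type mice, 4.69% of all genes rising and 6.11% falling. Across all 18194 genes the 2 differences had r = -0.22 and rho = -0.23, a description over genes, which are not independent replicates. Genes called in both genotypes numbered 975, which is 30.95% of those called in the knockout and 49.59% of those called in wild type mice. Of these, 207 moved the same way and 768 the opposite way, 479 of them rising in the knockout and falling in wild type. The test of the difference itself, the interaction, called 3413 genes (12.0% of all towards the knockout, 6.77% towards wild type), and 2348 of the 3150 genes changed in the knockout were among them. Strain differs with genotype in these groups, so the 2 cannot be told apart here.

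At the wild type end of the interaction stood epididymis genes that rose in wild type mice as they fell in the knockout. Lcn5 read 5.05 and 5.22 on regular diet and 8.93 and 9.27 on high fat diet in wild type mice, the opposite of its course in the knockout (interaction -12.61 ± 0.20, limma adjusted p 4.08e-26). Adam7, a surface protein of the duct, fell by 3.00 in the knockout and rose by 5.02 in wild type mice. Lcn8, next to Lcn5 in the genome, differed by 0.31 in wild type mice and Gpx5 by 0.07, and neither passed. At the knockout end stood Tnnc2 (interaction 9.08 ± 0.17), which fell from 9.99 and 9.95 to 5.35 and 5.60 in wild type mice, Ckm (6.51 ± 0.18) and the muscle LIM protein Pdlim3 (5.53 ± 0.19).

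**Figure D5:**
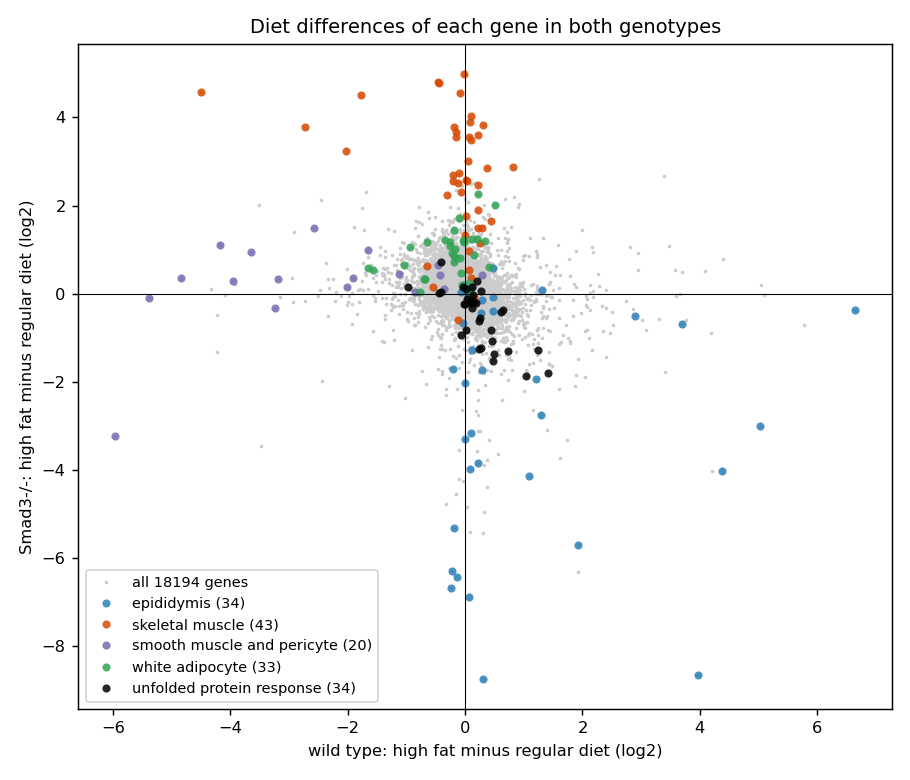
Log2 difference between high fat and regular diet in wild type mice (horizontal) and in the knockout (vertical), 1 point per gene, with 5 lists in colour. Skeletal muscle genes lie high (median 2.70 in the knockout, 0.01 in wild type), epididymis genes lie low (-1.98 and 0.28), and over all 18194 genes r was -0.22.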

How the data were processed

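Total RNA (6 ug per array, per the labels' protocols) was measured on 12 Affymetrix mouse arrays. The authors deposited log2 intensities, made with RMA in Partek per the submitters' processing notes, with versions not given in the sources used here. No detection calls were used, so whether a low value lies above background is not known. Of 45101 probe sets, 34958 name 1 gene, 932 several and 9211 none. Each of 18194 genes was read from its brightest probe set (mean over the 12 arrays) among those naming only that gene, and 18032 matched RefSeq symbols of GRCm38.p6.

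Group means were fitted over all 12 arrays in limma 3.58.1 (R 4.3.3; eBayes with a trend, 6 residual and 20.4 prior degrees of freedom) and tested two-sided with Benjamini-Hochberg adjustment at 0.05. The script was tested on simulated data. The letters a and b do not pair the arrays, so no block was used. Genes were named by rule: the 15 highest and 15 lowest changes, up to 4 per list, 30 chosen genes (28 measured: 10 rose, 4 fell and 14 did not pass) and 8 at each end of the interaction. Others are said to be named after their values were seen, or are named for a promoter motif or as background. The comparison, the 40 gene lists and the tests were chosen with earlier results of these data known. Alternatives changed the fit, the normalization, the probe set, the filter on dim probe sets (the lowest 40% left out) and the arrays used. Figures were drawn with matplotlib 3.10.9.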

Additional observations from a re-analysis of the deposited data

Results flagged for a closer look

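The interaction test of limma asks whether the diet difference of the knockout differs from that of wild type mice, and it called 3413 genes (18.8%). Given here are 29 of them, picked as the 8 most extreme at each end and the chosen genes that passed. Their SE was 0.138 to 0.232 and their limma adjusted p at most 0.00942. Values are the knockout difference minus the wild type difference on the log2 scale. Among genes of the epididymis and those that fell with them, these were -12.61 for Lcn5, -9.05 for Lcn8, -8.40 for Spint4, -8.24 for Epp13, -8.23 for C4bp, -8.03 for Adam7, -7.63 for Lcn2, -7.03 for Cuzd1 and -6.95 for Gpx5. Cuzd1 owed its value to wild type mice, in which it rose by 6.65.

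Hspa5, the chaperone of the endoplasmic reticulum, stood at -2.02, Mest at -1.21 and the brown fat gene Ucp1 at -0.54. Genes of white fat stood above 0, with 0.86 for Fasn, 1.05 for Adipoq, 1.51 for Lep, 1.68 for Slc2a4, 1.82 for Retn and 1.99 for Pparg. The TGF-beta responsive genes Fn1 and Ccn2 stood at 1.89 and 1.95.

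Contractile genes had the highest values, with 3.81 for Myh4, 5.25 for Mybpc1, 5.27 for Myl2, 5.28 for Tpm2, 5.28 for Cnn1, 5.53 for Pdlim3, 6.27 for Acta1, 6.51 for Ckm and 9.08 for Tnnc2. For Cnn1 the wild type fell by 5.39 and the knockout differed by -0.11. With 2 arrays per group, no single array could be tested as standing apart from its group.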

How the results depend on the processing

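The count of 3150 genes in the knockout ranged from 2035 (without array b of the high fat group) to 3248 with 1 array left out, and was 1413 with a change of at least 1.5-fold required. In wild type mice 1966 genes became 1296 (without array a of the regular diet group) to 2100, and 945 with that fold. The interaction gave 2736 to 3433 genes with 1 array left out. With the letters as a replicate block the counts were 2989 in the knockout, 1842 in wild type mice and 3309 for the interaction. The letters crossed, an alternative chosen after seeing the data, gave 3012, 1872 and 3339. Deviations of same-lettered arrays of the 2 knockout groups correlated at -0.16. Quantile normalization applied again gave an interaction of 2146 genes towards the knockout and 1706 towards wild type (55.7% against 63.9%).

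With the second brightest probe set, 27 values of named genes that were called with either probe set changed sign, and the cause was not tested. Sign changes of values called with neither were not counted. In the knockout these were Mb -0.29, Dld -0.28, Opa1 -0.16, Skil 0.12, Tpm1 -0.54, Fn1 -0.052, Lama4 -0.016, Ctsc -0.32, Atp6v1e1 -0.021, Cdkn1a -0.36, Des -0.042 and Myod1 -0.68. In wild type mice they were Tnni2 0.49, Ckm 0.12, Sc5d 0.045, Dld 0.091, Mfn2 0.23, Pfkfb3 -0.067 and Scd1 -0.38. For the interaction they were Myh4 -0.088, Mb -0.26, Dgat1 -0.19, Cpt2 -0.13, Dld -0.37, Mfn2 -0.10, Opa1 -0.0062 and Lama4 -0.090. The second brightest probe set also lost knockout calls, among them those of Acot11, Cpt1a, Cpt2, Fst, Hook1, Mgst3, Nid1, Pfkfb3, Prm1 and Tgfbr3. Of 167 named genes called in the knockout, 18 lost the call when some array was left out and 30 under some other setting. These counts leave out genes that changed sign, and 124 genes kept both call and sign throughout. The fit of only the 4 knockout arrays and the crossed letters were not counted. Of 76 called named genes with several probe sets, 57 had all in 1 direction. Dim probe sets left out gave 17 falling epididymis genes and 22 rising muscle genes, with fewer genes tested.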

Other observations

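Some genes moved in the same direction in both genotypes. Those given here were chosen after their values were seen. Plac8, a small cysteine-rich protein, read 10.39 and 10.33 on regular diet and 6.88 and 6.94 on high fat diet in the knockout, and 11.35 and 11.46 against 7.70 and 8.17 in wild type mice. The falls of 3.45 and 3.47 differed by 0.02 ± 0.18 (limma interaction, adjusted p 0.969). Pck1, the glyceroneogenic enzyme of fat cells, rose by 1.27 in the knockout and 1.11 in wild type mice, a difference of 0.16 with limma adjusted p 0.608. G0s2, an inhibitor of the lipase Pnpla2, rose by 1.44 and 2.00 (interaction -0.56 ± 0.21, limma adjusted p 0.0582). Myom2, an M-band protein of striated muscle, rose by 2.66 and 3.40, less in the knockout (interaction -0.73 ± 0.24, limma adjusted p 0.0331). Hmgcs1 rose by 1.09 and 1.59 (interaction -0.49 ± 0.18, limma adjusted p 0.0637). Acly fell by 0.84 and 1.56, less in the knockout (interaction 0.72 ± 0.14, limma adjusted p 0.000215). A p that misses the threshold does not show that the responses were equal.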
